A study of Mus musculus with 6 samples.

Results

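Collagen chain genes encode the polypeptides that wind by threes into the collagen triple helix. They were taken from the deposited count table by symbol, as every row named Col, a type number, the letter a and a chain number, which gave 44 of 35977 genes. The livers came from mice injected with 1 of 2 adeno-associated viruses of serotype 9 (AAV9), a gene delivery vector. AAV-Tnnt2-Cre, called Cre here, carries the recombinase Cre behind the promoter of Tnnt2, the cardiac troponin T gene, and was given to the 3 livers of replicates 10, 11 and 12. AAV-Tnnt2-Cre-miR122, called Cre-miR122, also carries target sites of miR-122, a microRNA abundant in hepatocytes, and was given to the 3 livers of replicates 1, 2 and 4. The design asks how the added sites affect the liver. All 6 livers had therefore received a Cre vector, and no untreated liver was analysed here. The labels give no strain, age, sex, dose or time, and do not say whether the libraries of a group came from separate animals, so p-values here reflect the spread of these libraries, which may be technical.

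Collagens are the main structural proteins of the extracellular matrix. Chains are made as procollagens in the endoplasmic reticulum, hydroxylated and folded there, secreted, trimmed and crosslinked. In liver, stellate cells and portal fibroblasts make most fibrillar collagen, sinusoidal endothelial and stellate cells make basement membrane collagen, and hepatocytes are a known source of Col18a1, whose product is cleaved to the angiogenesis inhibitor endostatin. Fibrillar chains build up in the scar of liver fibrosis.

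Total counts lay between 20340994 and 20817837 per library. Cre replicate 10 stood apart in its sex-linked genes, with 5 counts of Xist and 1676 of the Y-linked Ddx3y, while the others had at least 15778 and at most 1. No 2 libraries matched within sampling noise, the smallest chi-square per degree of freedom of a pair being 5.76. The vector's own Cre transcript had 37 to 61 counts with Cre and 10 to 16 with Cre-miR122. Summed markers of hepatocytes lay between 151545 and 184707 CPM, as in liver tissue. CPM (counts per library brought to a common total) were computed from library sizes scaled by the trimmed mean of M-values (TMM), and levels between genes are compared as CPM per kilobase of exon.

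Of the 44 collagen genes, 33 had enough counts to be tested and 0 were called different between the vectors, where the background was 0% of the 14374 genes tested (edgeR quasi-likelihood test, Benjamini-Hochberg adjusted p under 0.05). The smallest adjusted p among them was 0.816, which was also the smallest over all genes. Even the vector's own Cre transcript, lower with Cre-miR122 (log2 fold change -1.95), was not called (edgeR adjusted p = 0.816). That 0 members were called therefore does not show that collagen genes were unchanged. Log2 fold changes, Cre-miR122 minus Cre throughout, were above 0 for 15 and below 0 for 18 members, with a median of -0.0066 beside -0.0029 over all genes tested. They ran from -0.41 for Col6a5 to 0.64 for Col4a4. At an unadjusted p under 0.05 there were 2 members, Col4a4 and Col4a5, both higher with Cre-miR122, which is 6.06% of the members against 5.41% of all genes (2.76% higher and 2.65% lower). Libraries of the groups did not overlap for 3 members, these 2 and Col6a6, or 9.09% against 11.1% of all genes. Both shares were near their background. DESeq2 and limma-voom also called 0 members and gave 2 at an unadjusted p under 0.05, again Col4a4 and Col4a5.

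**Figure D1:**
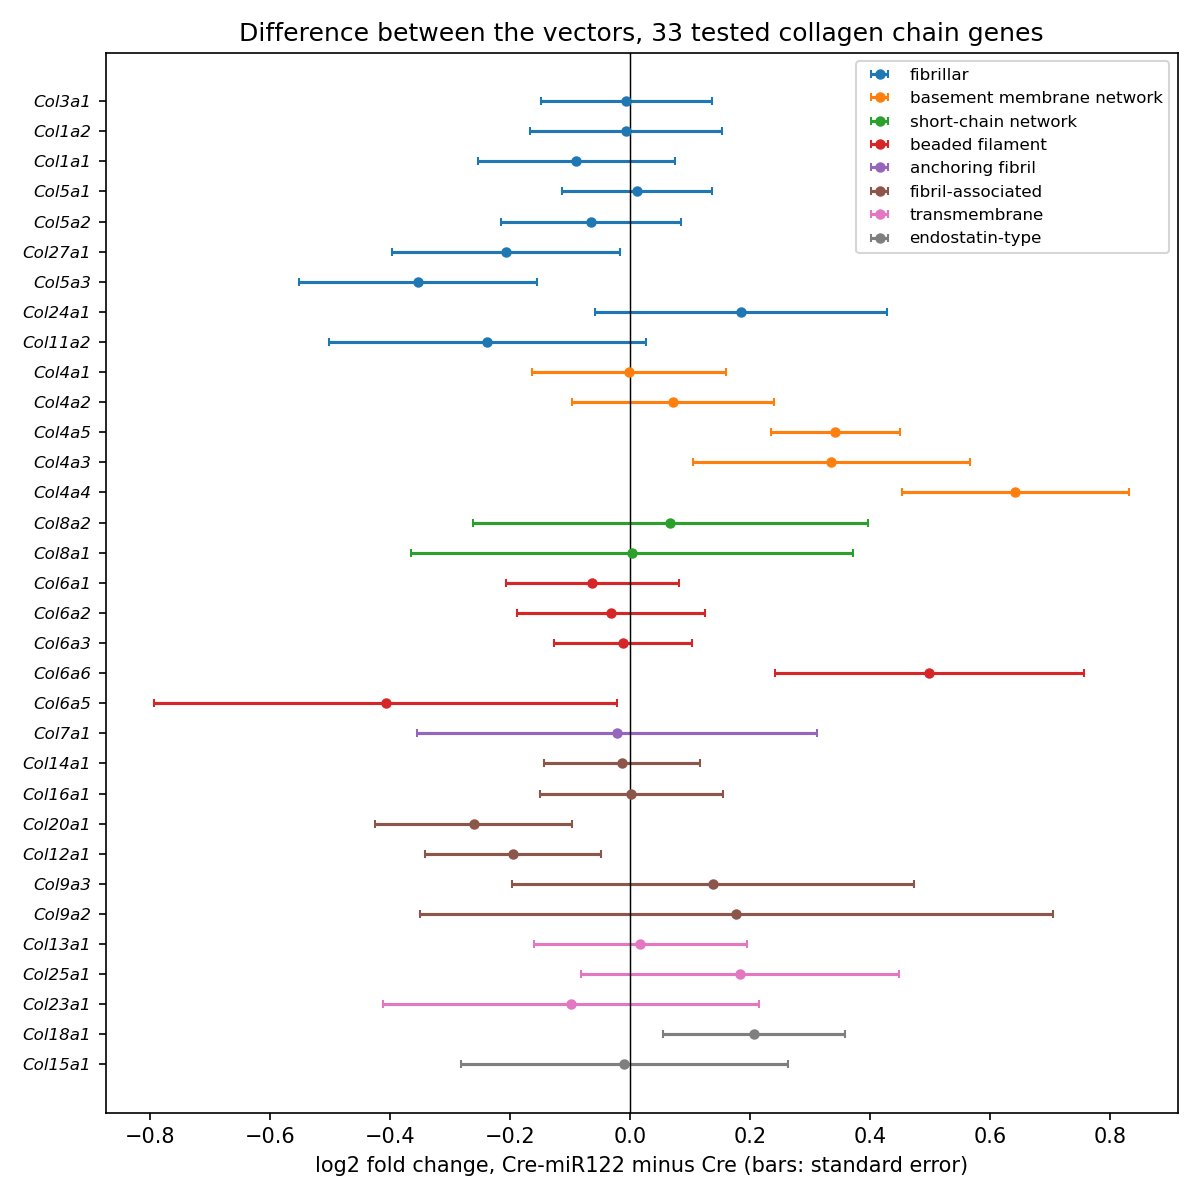
Log2 fold change (horizontal axis) of each of the 33 tested collagen chain genes (vertical axis), with its standard error as a bar and its structural class as colour. Most members lie near 0, and the members farthest from it are Col4a4 at 0.64, Col6a6 at 0.50 and Col6a5 at -0.41.

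The collagen transcripts of these livers were led by 1 gene, Col18a1, which made up 49.4% of the summed level per kilobase of all 44 members. Fibrillar genes made up 29.9%, basement membrane genes 10.4%, the fibril-associated genes 5.56% and the beaded filament genes of type VI 4.18%. Collagen genes held 0.213% to 0.293% of all counts. Their summed level was 379 ± 70.7 CPM per kilobase with Cre and 405 ± 24.9 with Cre-miR122 (SD, n = 3 each), and without Col18a1 it was 199 ± 37.2 and 198 ± 10.6.

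**Figure D2:**
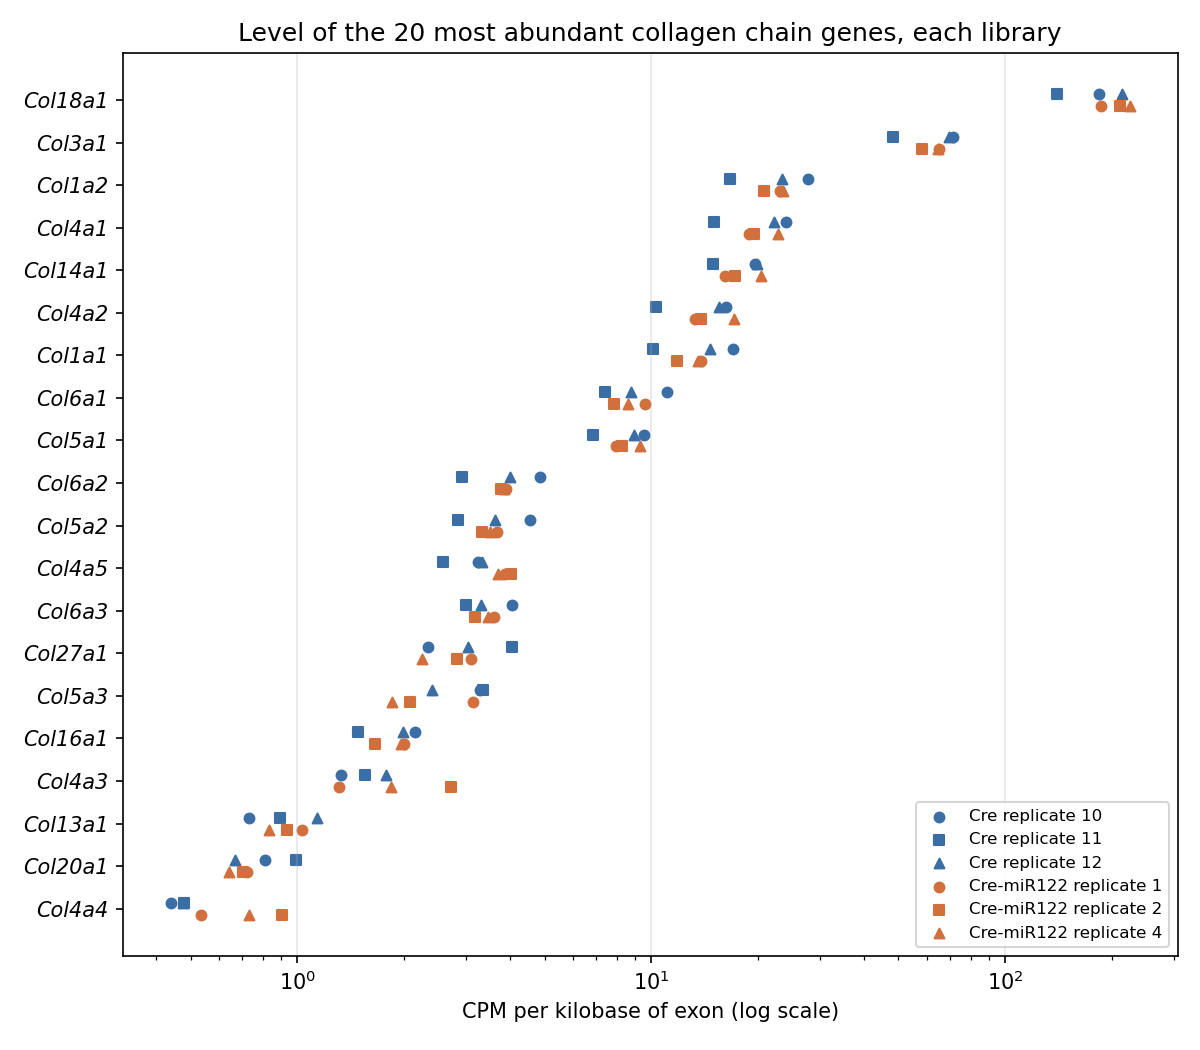
Level of the 20 most abundant collagen chain genes in CPM per kilobase of exon (horizontal log axis), 1 point for each library, blue for Cre and orange for Cre-miR122. Col18a1 stands above all others, and the square of Cre replicate 11 is the leftmost point for most of the abundant genes.

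Col18a1 (chromosome 10, 77052178 to 77166530 on the minus strand, mm10) encodes the chain of type XVIII collagen, a heparan sulfate proteoglycan of basement membranes. It stood at 1347, 1024 and 1561 CPM in Cre replicates 10, 11 and 12 and at 1358, 1539 and 1640 CPM in Cre-miR122 replicates 1, 2 and 4. The groups overlapped, with Cre replicate 11 lowest and Cre-miR122 replicate 4 highest. Its log2 fold change was 0.21 (SE 0.15, edgeR adjusted p = 0.821), and it ran from 0.056 without Cre replicate 11 to 0.35 without Cre replicate 12. Col15a1, the other member of this class, was far lower, with means of 3.21 ± 1.18 CPM in the Cre group and 3.17 ± 0.514 CPM in the other (SD, n = 3 each).

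Among the 11 fibrillar genes, 9 were tested, with 2 log2 fold changes above 0, 7 below and a median of -0.066. Col3a1 (chromosome 1, 45311538 to 45349706), the single chain of type III collagen, was the most abundant of them. Its values were 397, 268 and 386 CPM in Cre replicates 10, 11 and 12, and 362, 325 and 359 CPM in Cre-miR122 replicates 1, 2 and 4. The Cre-miR122 libraries all lay inside the span of the Cre libraries, and the log2 fold change was -0.0066 (SE 0.14). In bulk liver, fewer collagen-making cells and less RNA in each cannot be told apart.

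The chains of type I collagen, the main fibril protein of scar, followed each other across the libraries. Col1a1 (chromosome 11, 94936224 to 94953042) was at 101, 60.1 and 87.0 CPM in Cre replicates 10, 11 and 12, and at 82.0, 70.4 and 80.5 CPM in Cre-miR122 replicates 1, 2 and 4. Col1a2 (chromosome 6, 4505618 to 4541543) was at 145, 87.2 and 123 CPM in Cre replicates 10, 11 and 12 and at 121, 109 and 123 CPM in the other group, in the same order. Cre replicate 10 was highest and Cre replicate 11 lowest for both genes, and the Cre-miR122 libraries lay between them. Log2 fold changes were -0.090 (SE 0.16) for Col1a1 and -0.0075 (SE 0.16) for Col1a2.

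Type V chains, which set the diameter of type I fibrils, overlapped between the groups. Col5a1 was at 81.2, 58.4 and 76.1 CPM in Cre replicates 10, 11 and 12, and at 67.7, 70.5 and 79.1 CPM in Cre-miR122 replicates 1, 2 and 4. Its partner Col5a2 was at 30.1, 18.8 and 24.0 CPM in the Cre group and 24.3, 22 and 23.2 CPM in the Cre-miR122 group. Both had their lowest value in Cre replicate 11 and their highest in Cre replicate 10.

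Col5a3, the third type V chain, and Col27a1, a fibrillar chain best known from cartilage, did not follow that order. Col5a3 was at 21.7, 22.1 and 15.9 CPM in Cre replicates 10, 11 and 12 and at 20.7, 13.7 and 12.2 CPM in Cre-miR122 replicates 1, 2 and 4 (log2 fold change -0.35, SE 0.20, from -0.61 without Cre-miR122 replicate 1 to -0.21 without replicate 4). Col27a1 was at 22.5, 39.2 and 29.4 CPM in the Cre group and 29.97, 27.3 and 21.7 CPM in the Cre-miR122 group, in the same order (-0.21, SE 0.19). Cre replicate 11, lowest for types I and III, was highest for both of these genes, and the groups overlapped. Without it the log2 fold change of Col27a1 was 0.018. Col24a1 and Col11a2, below 4 CPM in every library, had log2 fold changes of 0.18 (SE 0.24) and -0.24 (SE 0.26).

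Basement membrane collagen is type IV, whose 6 chains assemble into 3 known trimers: the widespread one of Col4a1 and Col4a2, the one of Col4a3, Col4a4 and Col4a5 known from kidney glomeruli, and the one of Col4a5 and Col4a6. Col4a1 was at 179, 112 and 166 CPM in Cre replicates 10, 11 and 12 and at 141, 146 and 171 CPM in Cre-miR122 replicates 1, 2 and 4. Col4a2 was at 105, 66.7 and 101 CPM in the Cre group and 85.9, 89.1 and 111 CPM in the Cre-miR122 group, in the same order. Cre replicate 11 was lowest for both, and the groups overlapped, with log2 fold changes of -0.0020 (SE 0.16) and 0.071 (SE 0.17).

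These 2 genes lie head to head on chromosome 8, Col4a1 from 11198423 to 11312826 on the minus strand and Col4a2 from 11312805 to 11449287 on the plus strand, and their first exons share 22 bases on opposite strands. The promoter windows, from 250 bases before to 50 after each start in RefSeq (GRCm38.p6), therefore overlap by 78 bases. They are shown as those of a head-to-head pair whose ratio varied little between libraries, from 1.33 to 1.48. The ratio of Col1a1 to Col1a2, on different chromosomes, varied about as little (0.570 to 0.625). That of the head-to-head pair Col4a3 and Col4a4 varied more (2.45 to 3.74). Col4a5 and Col4a6 also lie head to head, 1293 bases apart. Their ratio ran from 29.1 to 516, but Col4a6 had only 1 to 18 counts per library. The part of this layout in the levels was not tested. Capitals mark the CCAAT box and the GC box GGGCGG on either strand.
Col4a1 (chr8:11312777-11313076, minus strand): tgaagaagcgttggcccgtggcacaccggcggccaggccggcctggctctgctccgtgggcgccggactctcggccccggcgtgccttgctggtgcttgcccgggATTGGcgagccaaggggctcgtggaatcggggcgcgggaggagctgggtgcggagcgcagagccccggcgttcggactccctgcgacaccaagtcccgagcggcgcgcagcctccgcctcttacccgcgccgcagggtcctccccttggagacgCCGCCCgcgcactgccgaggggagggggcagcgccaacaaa
Col4a2 (chr8:11312555-11312854, plus strand): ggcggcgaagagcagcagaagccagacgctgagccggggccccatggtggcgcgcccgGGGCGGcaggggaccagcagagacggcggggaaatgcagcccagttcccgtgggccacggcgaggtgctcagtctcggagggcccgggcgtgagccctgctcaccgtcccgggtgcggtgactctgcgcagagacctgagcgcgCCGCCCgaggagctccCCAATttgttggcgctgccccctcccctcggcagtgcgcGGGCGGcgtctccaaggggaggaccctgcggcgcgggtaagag

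Both windows held both motifs, but the only GC box of the Col4a1 window lies in the overlap and is also a GC box of the Col4a2 window. Promoter windows were found for 35 of the 44 members, 38 windows in all, of which 60.5% held a GC box and 34.2% a CCAAT box on either strand. Over all 32851 promoter windows of the same length the shares were 35.7% and 37.4%. The windows were not matched for base composition, so the GC box share cannot be read as particular to collagen genes. The 2 windows of Col6a2, both with a GC box, also overlap each other. The motif TATAAA, at any position in the window, was in 13.2% of the collagen windows and in 13.6% of all windows. In Col3a1 it began at -117 from the start. A match is only a run of letters and says nothing of whether a factor binds there.

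The 3 other type IV chains tested were all at higher means with Cre-miR122, and none passed the test over all genes. Col4a5 (chromosome X, 141475370 to 141689236) was at 21.3, 16.9 and 21.8 CPM in Cre replicates 10, 11 and 12 and at 25.3, 26.4 and 24.2 CPM in Cre-miR122 replicates 1, 2 and 4. Every Cre-miR122 library lay above every Cre library. The log2 fold change was 0.34 (SE 0.11, edgeR unadjusted p = 0.0109, adjusted p = 0.816), and the exact two-sided permutation p was 0.1, the smallest that 3 libraries against 3 allow.

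Col4a4 (chromosome 1, 82448419 to 82586927, minus strand) was at 4.71, 5.13 and 5.10 CPM in Cre replicates 10, 11 and 12 and at 5.74, 9.72 and 7.84 CPM in Cre-miR122 replicates 1, 2 and 4. The groups did not overlap, though Cre-miR122 replicate 1 stood close to the Cre libraries. Its log2 fold change of 0.64 (SE 0.19) had an edgeR unadjusted p of 0.0076 and an adjusted p of 0.816. Leaving out 1 library at a time gave 0.45 to 0.82 for Col4a4 and 0.23 to 0.41 for Col4a5, the lowest for Col4a4 without Cre-miR122 replicate 2 and for Col4a5 without Cre replicate 11. The unadjusted p stayed at or under 0.0353 and 0.0418 in these fits, and no adjusted p passed.

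Col4a3 (chromosome 1, 82586921 to 82722059), the head-to-head neighbour of Col4a4, was at 11.4, 13.4 and 15.4 CPM in Cre replicates 10, 11 and 12 and at 11.3, 23.5 and 15.8 CPM in Cre-miR122 replicates 1, 2 and 4. The groups overlapped, and the mean difference rested on Cre-miR122 replicate 2, where Col4a4 was also highest. The log2 fold change of 0.34 (SE 0.23) was 0.020 without that library and 0.55 without Cre-miR122 replicate 1. Col4a6 had 1 to 18 counts per library and was not tested.

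**Figure D3:**
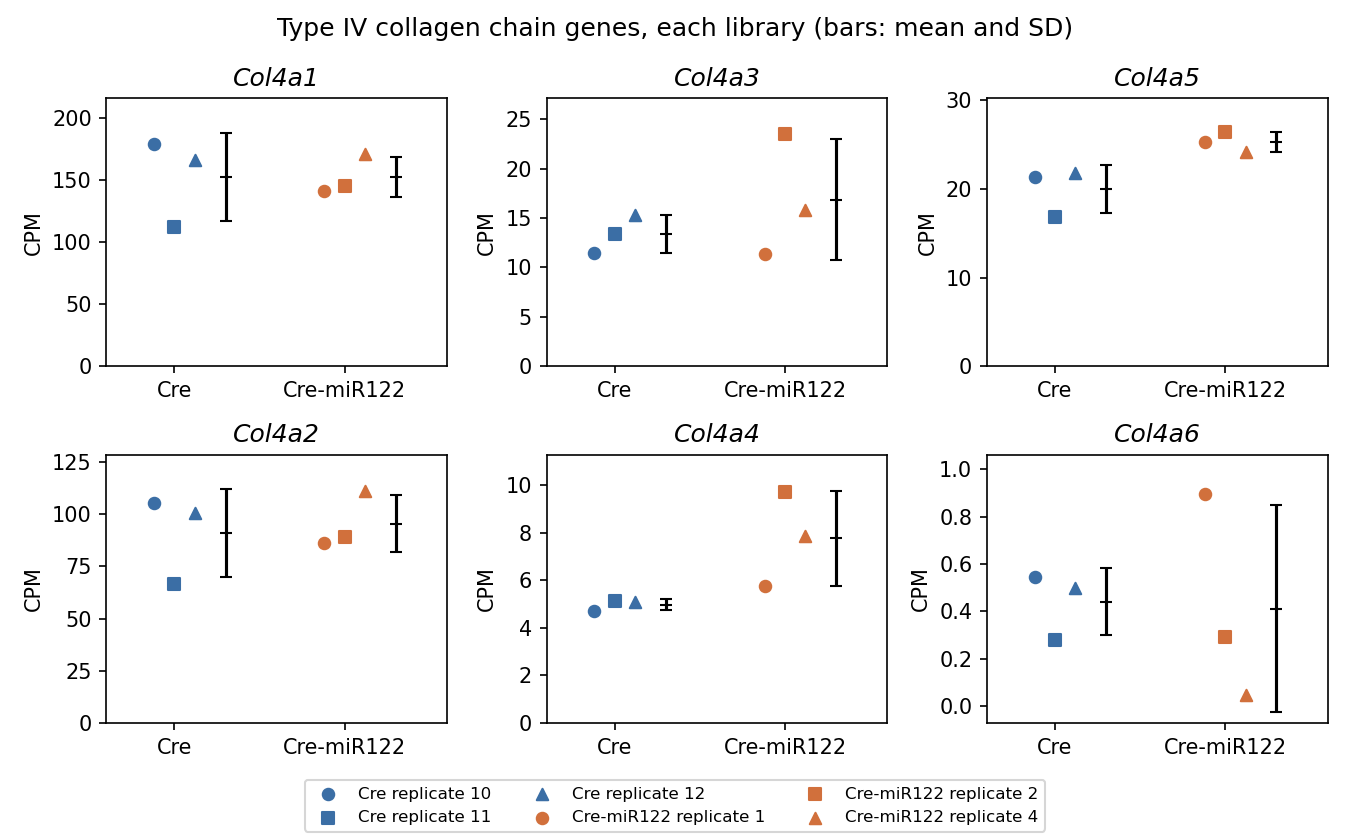
CPM (vertical axes, from 0 except where a bar reaches lower) of the 6 type IV collagen chain genes in each library, Cre in blue and Cre-miR122 in orange, with the mean and SD of each group as a black bar. Points of the groups are separate for Col4a5 and Col4a4 and overlap for the other 4 genes.

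Type VI collagen forms beaded microfilaments around cells. Col6a1 was at 44.1, 29.5 and 34.9 CPM in Cre replicates 10, 11 and 12 and at 38.3, 31.2 and 34.3 CPM in Cre-miR122 replicates 1, 2 and 4. Col6a2 was at 27.99, 16.8 and 23.0 CPM in the Cre group and 22.4, 21.7 and 22.1 CPM in the Cre-miR122 group, and Col6a3 at 43.7, 32.5 and 35.9 CPM in the Cre group and 39.0, 34.6 and 37.5 CPM in the Cre-miR122 group. For all 3 genes the Cre-miR122 libraries fell between Cre replicates 10 and 11, and log2 fold changes ran from -0.064 to -0.013 (SE 0.12 to 0.16). The rare chains differed more, on few counts. Col6a6 had 14, 17 and 13 counts with Cre and 22, 22 and 18 with Cre-miR122, a log2 fold change of 0.50 (SE 0.26). Col6a5 had 22, 10 and 12 counts with Cre and 13, 11 and 9 with Cre-miR122 (-0.41, SE 0.39). Neither passed even the unadjusted threshold.

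Fibril-associated collagens sit on the surface of type I and II fibrils. The leading one was Col14a1, at 139, 105 and 140 CPM in Cre replicates 10, 11 and 12 and at 114, 122 and 145 CPM in Cre-miR122 replicates 1, 2 and 4. Its log2 fold change was -0.014 (SE 0.13), and the groups overlapped. Col16a1 was at 12.5, 8.62 and 11.6 CPM in the Cre group and 11.6, 9.62 and 11.4 CPM in the Cre-miR122 group (0.0014, SE 0.15), with the lowest value again in Cre replicate 11. Of the 6 tested genes of this class, 3 lay above 0 and 3 below, from -0.26 for Col20a1 to 0.18 for Col9a2.

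The other tested members were low. The transmembrane collagens Col13a1, Col23a1 and Col25a1 had log2 fold changes of 0.016, -0.099 and 0.18, the short-chain network genes Col8a1 and Col8a2 had 0.0031 and 0.066, and Col7a1, the anchoring fibril chain of skin, had -0.023. Of these 6, Col13a1 reached 7.90 CPM and the rest stayed under 2 CPM. The 11 members that were not tested were Col4a6, Col11a1, Col17a1, Col9a1, Col28a1, Col10a1, Col22a1, Col26a1, Col2a1, Col6a4 and Col19a1, none with more than 18 counts in a library. For 7 of them at least 1 library had 0 counts, which allows up to 3. The cartilage genes Col2a1 and Col10a1 had at most 2 counts in a library.

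Most abundant members moved together from library to library, and this spread was wider than the difference between the vectors. Among the 17 tested members at a mean of 10 CPM or more, Cre replicate 11 was the lowest of the 6 libraries for 14, and Cre replicate 10 the highest for 10. Cre replicate 10 is also the library that stood apart in Xist and Ddx3y, with the pattern of a male animal, and the part of sex in these levels was not tested. The median deviation of these genes from their mean over the libraries, on the scale of log2(CPM + 0.5), was 0.20 in Cre replicate 10, -0.31 in Cre replicate 11 and 0.080 in Cre replicate 12. It was 0.051, -0.056 and 0.076 in Cre-miR122 replicates 1, 2 and 4. By this median the highest and the lowest library were both in the Cre group, whereas the summed level per kilobase, led by Col18a1, was highest in Cre-miR122 replicate 4 (433 CPM per kilobase) and lowest in Cre replicate 11 (297 CPM per kilobase). Over all tested genes these deviations lay between -0.0024 and 0.0031, but TMM scaling holds them near 0 by design. They therefore cannot show that a low library is a trait of collagen genes. In Cre replicate 11 the median deviation was also -0.23 for other matrix proteins, -0.17 for stellate cell markers and -0.16 for hepatocyte markers. Cholangiocyte markers, at 0.076, were the only list described below that lay above 0 there. The share of all genes lowest in Cre replicate 11 is not given here.

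The median log2 fold change of the tested members was 0.11 without Cre replicate 10, with 24 members above 0, and -0.13 without Cre replicate 11, with 10 above 0. For Col3a1 the log2 fold change ran from -0.17 without Cre replicate 11 to 0.094 without Cre replicate 10, and for Col1a1 from -0.28 to 0.078. At an unadjusted p under 0.05 there were 5 members without Cre replicate 12 in place of 2, and leaving out Cre-miR122 replicate 1 gave 4. The share of all genes at that threshold in these fits is not given here, so the rise cannot be read as particular to collagen genes. In each of these fits 0 members were called.

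**Figure D4:**
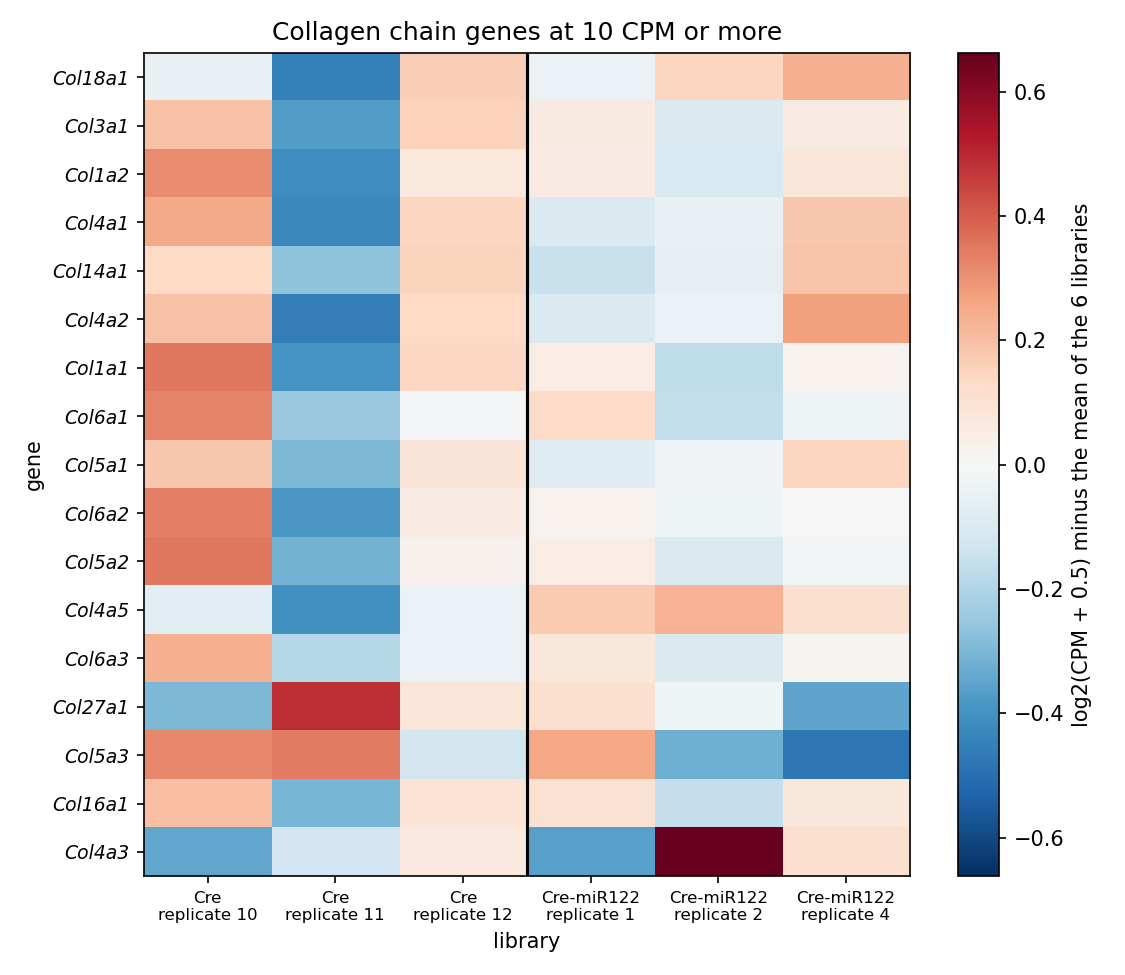
Deviation of each library (columns, Cre at the left and Cre-miR122 at the right of the black line) from the gene's mean in log2(CPM + 0.5) for the 17 tested collagen chain genes at 10 CPM or more (rows). The column of Cre replicate 11 is blue for 14 genes where it is lowest, and Col27a1, Col5a3 and Col4a3 show another order.

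Ratios between partner chains spanned less than the chains themselves in all 5 planned pairs. Col1a1 to Col1a2, per kilobase, was 0.612, 0.607 and 0.625 in Cre replicates 10, 11 and 12 and 0.597, 0.570 and 0.575 in Cre-miR122 replicates 1, 2 and 4. The largest ratio was 1.10 times the smallest, while Col1a1 itself spanned 1.68-fold over the libraries. The Cre libraries were all above the Cre-miR122 libraries, with means of 0.615 ± 0.0092 and 0.581 ± 0.014 (SD, n = 3 each, exact two-sided permutation p = 0.1, the smallest possible, and 0.25 adjusted over the 5 planned ratios). The type I trimer of protein holds 2 chains of Col1a1 to 1 of Col1a2, and the transcripts did not stand in that proportion.

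Col4a1 to Col4a2 was 1.48, 1.45 and 1.43 in Cre replicates 10, 11 and 12 and 1.42, 1.41 and 1.33 in Cre-miR122 replicates 1, 2 and 4. This ratio also separated the groups by a small margin (exact permutation p = 0.1, adjusted 0.25), and its span of 1.11-fold compares with 1.66-fold for Col4a2. Ratios of Col6a3 to Col6a1 spanned 1.117-fold, of Col6a1 to Col6a2 1.22-fold and of Col5a1 to Col5a2 1.26-fold, with overlapping groups (exact permutation p = 0.6, 0.6 and 0.5, each 0.6 adjusted). The head-to-head pair Col4a3 and Col4a4, a ratio chosen after its values were seen, was looser. It was 3.02, 3.24 and 3.74 in Cre replicates 10, 11 and 12 and 2.45, 3.004 and 2.51 in Cre-miR122 replicates 1, 2 and 4, a span of 1.52-fold. Col1a2 to Col3a1, chains of different collagens and also chosen afterwards, spanned 1.15-fold, from 0.339 to 0.389.

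**Figure D5:**
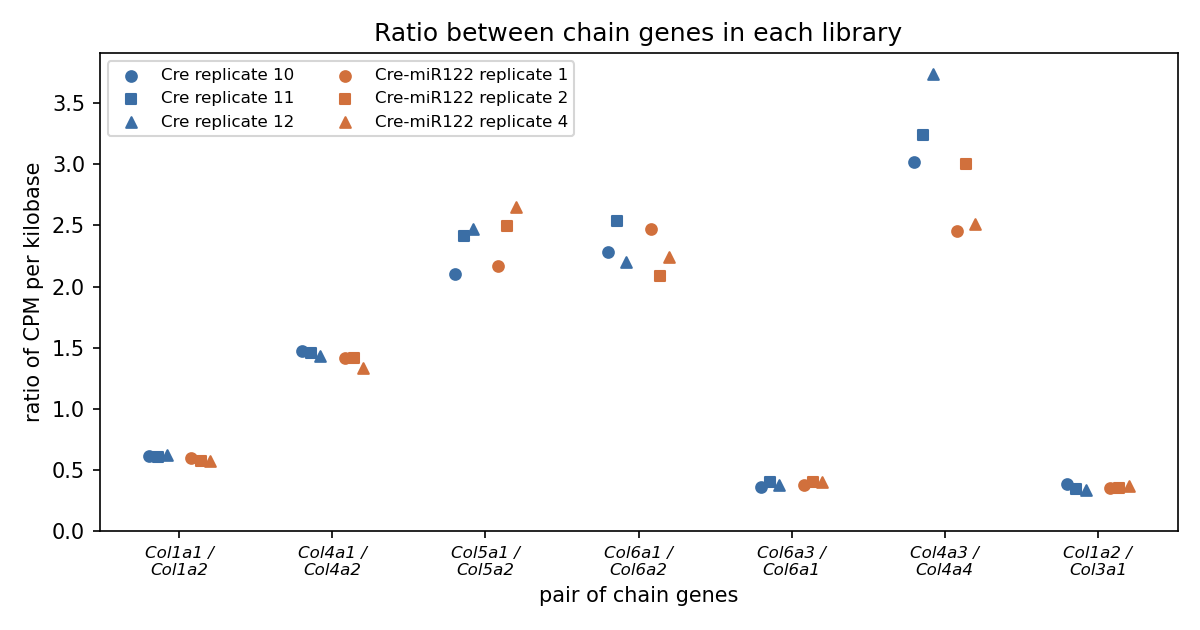
Ratio of CPM per kilobase (vertical axis, from 0) between pairs of collagen chain genes (horizontal axis), 1 point for each library, Cre in blue and Cre-miR122 in orange. Points of Col1a1 to Col1a2 and of Col4a1 to Col4a2 lie close together, between 0.570 and 0.625 and between 1.33 and 1.48, while those of Col4a3 to Col4a4 run from 2.45 to 3.74.

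A feature that many members share, and that the symbols did not choose, is a site for the miR-29 family in the 3′ UTR. These microRNAs are known repressors of collagen genes in fibroblasts and stellate cells, and have 1 common seed, bases 2 to 8, shown in capitals in the mature RefSeq sequences (GRCm38.p6).
mmu-miR-29a-3p: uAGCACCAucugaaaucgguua
mmu-miR-29b-3p: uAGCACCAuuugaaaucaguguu
mmu-miR-29c-3p: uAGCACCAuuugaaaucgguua

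The matching 7-mer TGGTGCT was in the longest annotated 3′ UTR (GENCODE M21) of 25 of 44 members, or 56.8%, against 13.6% of 19701 genes, with 0.693 and 0.107 sites per kilobase. The median UTR lengths were 1049 and 1010 bases. More than 1 site was found in 11 members. A choice of these sites is shown, for 3 abundant members and for Col4a4 and Col4a5, the members of smallest p (1 of the 2 sites of Col4a4), on the strand of the gene, with the 7-mer in capitals.
Col1a1 (chr11:94952527-94952551): gaaggaatttcTGGTGCTatagaag
Col3a1 (chr1:45348971-45348995): aaatgtctcaaTGGTGCTataataa
Col4a1 (chr8:11199755-11199779): ccgtcacaacaTGGTGCTactcccc
Col4a4 (chr1:82453029-82453053): agcaaattcagTGGTGCTctctcca
Col4a5 (chrX:141688242-141688266): gctcccaccaaTGGTGCTaatatcc
Col4a5 (chrX:141688523-141688547): attctttttcaTGGTGCTactaatc
Col4a5 (chrX:141688946-141688970): tcttattattcTGGTGCTatgcaag

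Col5a1, Col4a3 and the barely detected Col26a1 had 4 such sites each, Col4a5 and Col5a3 had 3 and Col4a4 had 2, while Col18a1, Col1a2, Col14a1 and Col6a1 had 0 in this UTR. The 19 tested members with a site had a median log2 fold change of -0.0020, with 9 above 0, and the 14 without one had -0.011, with 6 above 0. The difference between these sets was not tested. Mature microRNAs were not measured in these libraries.

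Of the 25 genes in the list of procollagen modification and folding, 24 were tested, 12 above 0 and 12 below, with a median of -0.010. At an unadjusted p under 0.05, 1 was higher and 1 lower, against 2.76% and 2.65% of all genes, and 0 were called. Libraries of the groups were separate for 6 of the 24, against 11.1% of all genes, and single log2 fold changes lay well away from the median. P4ha1, a subunit of the prolyl hydroxylase that stabilises the helix and a known target of miR-122, was at 19.96, 16.9 and 17.1 CPM in Cre replicates 10, 11 and 12 and at 13.9, 14.6 and 16.9 CPM in Cre-miR122 replicates 1, 2 and 4. The log2 fold change was -0.25 (SE 0.11, edgeR unadjusted p = 0.0499, adjusted p = 0.816), and Cre replicate 11 overlapped Cre-miR122 replicate 4. Mia2, which helps load large cargo in the secretory pathway, was at 0.70 (SE 0.30), and at 0.40 without Cre replicate 11. Tmem38b, an ion channel of the endoplasmic reticulum, was at 0.16 (SE 0.076), the lysyl hydroxylase gene Plod2 at -0.45 (SE 0.22) and the collagen chaperone gene Serpinh1 at -0.12 (SE 0.12).

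Propeptide removal and crosslinking genes numbered 16, of which 13 were tested, 5 above 0 and 8 below, with 2 of the 13 higher at an unadjusted p under 0.05, against 2.76% of all genes. These were the meprin gene Mep1a (1.19, SE 0.39), from 0.842 to 1.20 CPM with Cre and 1.06 to 3.24 CPM with Cre-miR122, and the procollagen peptidase gene Adamts3 (0.61, SE 0.21), from 1.17 to 1.35 CPM and 1.65 to 2.24 CPM. Both were low genes, and only Adamts3 separated the groups. The lysyl oxidase genes Lox and Loxl1, which start the crosslinks, were at -0.045 (SE 0.17) and -0.34 (SE 0.16).

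For collagen breakdown, 12 of 17 genes were tested, 7 above 0 and 5 below. Of these 0 had an unadjusted p under 0.05, against 5.41% of all genes. The gelatinase genes Mmp2 and Mmp9 were at 0.059 (SE 0.14) and 0.52 (SE 0.31, and 0.14 to 0.78 without Cre-miR122 replicates 4 and 1), Mmp15, a membrane-bound matrix metalloproteinase, at 0.18 (SE 0.12) and Fap, a fibroblast protease, at -0.43 (SE 0.36). Timp1, the metalloproteinase inhibitor induced in fibrosis, had at most 6 counts in a library and was not tested.

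Of 11 collagen receptor genes 8 were tested, 4 on each side of 0. Among them 1 was lower at an unadjusted p under 0.05, against 2.65% of all genes. This was Itga10, an integrin chain best known from cartilage, at 2.97, 3.36 and 2.45 CPM in Cre replicates 10, 11 and 12 and 2.34, 1.596 and 1.84 CPM in Cre-miR122 replicates 1, 2 and 4 (-0.61, SE 0.21, edgeR adjusted p = 0.816). Itga1 and Itgb1, the chains of the main liver collagen integrin, were at 0.19 (SE 0.11) and 0.13 (SE 0.10). The discoidin receptor gene Ddr2 was at -0.081 (SE 0.13) and the leukocyte collagen receptor gene Lair1 at -0.25 (SE 0.15).

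Transforming growth factor beta drives collagen transcription in stellate cells. All 20 genes of this axis in the table were tested, 7 above 0 and 13 below, and 0 were called. At an unadjusted p under 0.05, 1 was higher and 2 were lower, against 2.76% and 2.65% of all genes. Whether this small count differs from those shares was not tested. The ligand gene Tgfb1 was at 16.3, 13.3 and 14.9 CPM in Cre replicates 10, 11 and 12 and at 10.97, 12.6 and 12.3 CPM in Cre-miR122 replicates 1, 2 and 4, without overlap (-0.31, SE 0.11, edgeR unadjusted p = 0.0221, adjusted p = 0.816). Tgfbr3, a co-receptor, was at 0.34 (SE 0.12), and Ctgf, a target gene of the pathway, at -0.049 (SE 0.31).

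The other matrix proteins, 33 in the list and all tested, had 14 members above 0 and 19 below. At an unadjusted p under 0.05, 1 was higher and 1 lower, against 2.76% and 2.65% of all genes. Fn1, the fibronectin gene, which hepatocytes express strongly, was at 2579, 2345 and 2796 CPM in Cre replicates 10, 11 and 12 and at 2964, 3060 and 3211 CPM in Cre-miR122 replicates 1, 2 and 4 (0.26, SE 0.10, edgeR unadjusted p = 0.0331, adjusted p = 0.816). Fmod, a small proteoglycan that binds collagen fibrils, was at 3.37, 4.15 and 2.80 CPM in the Cre group and 2.24, 1.79 and 2.18 CPM in the Cre-miR122 group (-0.73, SE 0.20, unadjusted p = 0.0053 and adjusted p = 0.816 by edgeR). The groups were separate for both genes, in opposite directions. The laminin chain gene Lama4 was at -0.44 (SE 0.20), and at -0.20 without Cre replicate 10.

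Markers of the cells that make collagen also varied between libraries, but not every list followed the order of collagen. Their part in the collagen levels was not tested. The 20 stellate cell markers, all tested, summed to 545 to 663 CPM with Cre and 590 to 654 CPM with Cre-miR122, lowest in Cre replicate 11 and highest in Cre replicate 10. Their median deviation was 0.097 in Cre replicate 10 and -0.17 in Cre replicate 11, the same order as for collagen. Log2 fold changes were above 0 for 8 of these markers and below 0 for 12, with a median of -0.032. They were 0.045 (SE 0.13) for Lrat, 0.30 (SE 0.14) for Reln, -0.15 (SE 0.084) for Pdgfrb and -0.42 (SE 0.25) for Rgs5. Without Cre replicate 10 Rgs5 was at -0.077.

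Portal fibroblast and mesothelium markers, 11 of 13 tested, summed to 147 to 187 CPM with Cre and 168 to 197 CPM with Cre-miR122. This sum was led by Eln, at a mean of 139 CPM over the 6 libraries, which is also in the list of other matrix proteins. Of the tested markers 4 lay above 0 and 7 below, with a median of -0.14. Thy1, Dpt and Eln were at -0.44 (SE 0.28), -0.26 (SE 0.16) and 0.13 (SE 0.12). Myofibroblast and smooth muscle markers, 7 of 9 tested, summed to 31.2 to 56.0 CPM with Cre and 31.7 to 65.8 CPM with Cre-miR122. Among those tested 5 lay above 0 and 2 below, with a median of 0.031. Acta2, the actin gene of activated stellate cells and smooth muscle, was at 15.0, 5.22 and 7.70 CPM in Cre replicates 10, 11 and 12 and at 13.5, 5.66 and 8.03 CPM in Cre-miR122 replicates 1, 2 and 4. It was thus high in 1 library of each group, and its log2 fold change was -0.037 (SE 0.39). Actg2, Lmod1 and Des of the same list were at 0.33 (SE 0.67), 0.23 (SE 0.39) and -0.13 (SE 0.18), and Tagln had at most 4 counts in a library.

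Sinusoidal endothelium markers, all 12 tested, summed to 438 to 564 CPM with Cre and 431 to 553 CPM with Cre-miR122. Their sum was highest in Cre replicate 10 and Cre-miR122 replicate 1 and lowest in Cre-miR122 replicate 2. Cre replicate 12 (438 CPM) lay below Cre replicate 11 (446 CPM), unlike the order of collagen. Of these markers 5 lay above 0 and 7 below, with a median of -0.025. Lyve1 was at 0.25 (SE 0.10), 1 marker of this list with an unadjusted p under 0.05, where 2.76% of all genes were higher. Gpr182 was at -0.18 (SE 0.18) and Stab2 at -0.076 (SE 0.097). Cholangiocyte markers, 8 of 10 tested, summed to 99.8 to 116 CPM with Cre and 108 to 116 CPM with Cre-miR122. Among those tested 4 lay above 0 and 4 below, with Krt7 at -0.39 (SE 0.30), Sox9 at 0.23 (SE 0.27) and Krt19 at -0.052 (SE 0.29). Hepatocyte markers summed lowest in Cre replicate 11, at 151545 CPM against 174601 to 184707 CPM in the other 5 libraries. All 10 were tested, 6 above 0 and 4 below, with Cps1 at 0.37 (SE 0.18), Serpina1a at -0.17 (SE 0.11) and Tat at 0.71 (SE 0.48). Of every marker list 0 genes were called, and no marker was at 0 in all 6 libraries.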

How the data were processed

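The deposited values are raw counts of reads for each gene and library, 3 libraries a group. The submitters' processing notes name STAR 2.7.9a, featureCounts 2.0.1 and the build GRCm38 (mm10). Strand setting and treatment of multi-mapping reads: not given in the sources used here. Exon bases shared with another gene touched 14 members, at most 7.76% of a member's length (Col9a3, opposite strand). Merged exon lengths are those of the deposited table, and 5 columns that match no sample were not used.

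All genes passing filterByExpr were fitted with edgeR 4.0.16 in R 4.3.3 (TMM scaling, quasi-likelihood, group alone), with SEs taken from the F statistic. The count model was tested on simulated data. Exact permutation tests used log2(CPM + 0.5) for genes and log2 ratios. DESeq2 1.42.0 and limma 3.58.1 were alternatives. The members and lists were chosen with earlier results of these data known. Values per library are given for the 16 members highest per kilobase and for others with an unadjusted p under 0.05, and the 3 genes of smallest p of each list plus a fixed set are named. Some genes picked by this rule are not reported here. Col4a3, Col6a6 and Col6a5 were singled out after their values were seen. Sequences come from RefSeq and GENCODE, whose mouse build is that of the files.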

Additional observations from a re-analysis of the deposited data

How the results depend on the processing

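With every alternative run, 0 collagen genes were called: RLE, upper-quartile and no scaling, no filter, a CPM of at least 1 in 3 libraries, DESeq2, limma-voom, robust dispersion, an adjusted p under 0.1 and leaving out each library. The number at an unadjusted p under 0.05 was 2 or 3 under the other settings and ran from 2 to 5 with a library left out, 4 without Cre-miR122 replicate 1 and 5 without Cre replicate 12. These counts have no share over all genes of the same fits beside them. The median log2 fold change lay between -0.023 and 0.017 under the other settings, with 15 of 33 members above 0 with TMM, 12 with upper-quartile and 11 with no scaling, 21 with limma-voom (and 23 of 44 with DESeq2 and with no filter, 9 of 26 with the CPM filter), and between -0.13 and 0.11 with a library left out. Of the 63 named genes, 26 changed sign in at least 1 fit without a library, and their log2 fold changes then ran from the lower to the higher value given: Col4a1 -0.18 to 0.13, Col14a1 -0.14 to 0.057, Col16a1 -0.14 to 0.11, Tat -0.062 to 1.25, Actg2 -1.05 to 0.76, Col3a1 -0.17 to 0.094, Col1a2 -0.19 to 0.17, Col6a1 -0.19 to 0.10, Col6a3 -0.11 to 0.12, Sox9 -0.074 to 0.49, Lox -0.20 to 0.10, Ctgf -0.42 to 0.25, Lrat -0.079 to 0.14, Acta2 -0.44 to 0.49, Krt19 -0.40 to 0.12, Col4a2 -0.11 to 0.19, Col5a1 -0.12 to 0.11, Mmp2 -0.10 to 0.16, Col1a1 -0.28 to 0.078, Col6a2 -0.21 to 0.15, Col5a2 -0.22 to 0.12, Gpr182 -0.36 to 0.041, Serpinh1 -0.19 to 0.046, Col27a1 -0.38 to 0.018, Lmod1 -0.038 to 0.75, Eln -0.0012 to 0.21. Another 21 kept their sign but moved by over 1.5 times: Col18a1 0.056 to 0.35, Col4a3 0.02 to 0.55, Col5a3 -0.61 to -0.21, Cps1 0.17 to 0.52, Ddr2 -0.17 to -0.0074, Des -0.36 to -0.0042, Dpt -0.38 to -0.15, Fap -0.78 to -0.26, Itga1 0.11 to 0.29, Itgb1 0.033 to 0.20, Krt7 -0.64 to -0.17, Lama4 -0.59 to -0.20, Mia2 0.40 to 0.94, Mmp15 0.10 to 0.29, Mmp9 0.14 to 0.78, Plod2 -0.62 to -0.23, Reln 0.19 to 0.47, Rgs5 -0.61 to -0.077, Serpina1a -0.25 to -0.11, Stab2 -0.17 to -0.018, Thy1 -0.65 to -0.26. The log2 ratio of Col5a1 to Col5a2, Cre-miR122 minus Cre, ran from -0.0086 to 0.15 and that of Col6a1 to Col6a2 from -0.11 to 0.013. Signs also turned for Col5a1 (-0.0049 with upper-quartile and -0.0044 with no scaling), Col16a1 (-0.015, -0.016, and -0.00084 with the CPM filter), Col4a1 (0.0036 with no filter, 0.0029 with DESeq2, 0.021 with limma-voom) and, with limma-voom, Col3a1 (0.013), Col1a2 (0.021), Col6a2 (0.00063), Actg2 (-0.12) and Acta2 (0.013). The cause was not tested. No paired analysis was possible because the groups share no replicate number. Counts of at most 18 per library limit the 11 members that were not tested.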
